A study of Homo sapiens with 6 samples.

Results

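Integrins and laminins, the receptors and the basement membrane proteins through which cells hold on to their matrix, were followed in NCI-H446 cells. This line was established from a human small cell lung cancer. The members were the array probes whose annotated symbol is an integrin alpha or beta subunit or a laminin alpha, beta or gamma chain, and probes naming several genes were skipped. This gave 49 of 31741 probes, which measured 37 of 18336 genes, among them 18 integrin alpha subunits, 8 integrin beta subunits and 11 laminin chains. RNA came from 3 control flasks given 15 µl of DMSO (control 2, 5 and 6) and 3 flasks given an unnamed chemotherapy drug (drug 1, 3 and 4), each flask on its own single-colour array. Neither what the drug was nor how much was given for how long is stated in the sources used here, and the drug flasks have no stated solvent volume. Source names number the cell line upwards within the drug group and the DMSO volume upwards within the control group, whereas the sample characteristics, which were used, give 1 line and 1 volume. All flasks hold 1 cell line, so the p-values rest on the spread between flasks of that line.

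The labelled cell type was checked against its markers. Of 10 measured neuroendocrine markers, 4 were dim in the control flasks, and NEUROD1, a neuroendocrine lineage factor, was dim in both groups, at a mean log2 intensity of 5.12 and 4.66. Dim means a group mean under the lower quartile of all values, 6.86. The summed intensity of these markers ran from 3242 to 3770 on the control arrays and from 8598 to 9539 on the drug arrays. The largest change among them was that of the adhesion molecule NCAM1, by 5.08 on the log2 scale, from a mean of 7.20 to 12.28. NCAM1 carried most of the rise in the sum, and no sum without it was computed. Of the 10 markers, 4 (40%) were called higher and none lower. Over all genes 35.1% were called, 17.6% higher and 17.5% lower, and no test of the list was made. The list's median change was 0.35 in log2 units. None of the 8 non-neuroendocrine markers was dim in either group. Of these, the coactivator YAP1 fell by 2.48 and the receptor kinase AXL by 1.55, while the coactivator WWTR1 rose by 1.16 (limma adjusted p = 1.97e-05, 0.000269 and 0.000426). Median intensities ran from 376 to 476 over the arrays.

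An integrin is a dimer of 1 alpha and 1 beta subunit in the plasma membrane. The pair decides which matrix protein is bound, and the cytoplasmic tails couple to actin through talin and kindlin. Most alpha chains share the beta chain ITGB1, while ITGB4 pairs with ITGA6 alone and anchors epithelial cells to laminin in hemidesmosomes. Laminins are cross-shaped trimers of an alpha, a beta and a gamma chain that polymerise into the basement membrane, and the alpha chain carries the main integrin-binding site.

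ITGA7 was 11.0-fold higher in the drug flasks, while ITGB4, LAMA4, ITGA2, ITGAE and LAMA3 were between 2.06-fold and 3.30-fold lower. Of the 37 genes, each read from its brightest probe, 3 rose, 10 fell and 24 did not pass an adjusted p of 0.05 (limma, Benjamini-Hochberg over all probes). The share called, 35.1%, equalled that over all genes, 35.1%, so the number of changed members is no result about integrins and laminins. Over all genes 17.6% rose and 17.5% fell. The median log2 fold change was -0.14 over the members and 0.0075 over all genes. In 19 of the 37 genes the drug arrays lay wholly above (7) or wholly below (12) the control arrays, against 47.0% of all genes. Of the 37 members, 7 were called with a change of at least 2-fold, as were 15.7% of all genes. In RNA from whole flasks, fewer cells of a type and less RNA per cell cannot be told apart.

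**Figure D1:**
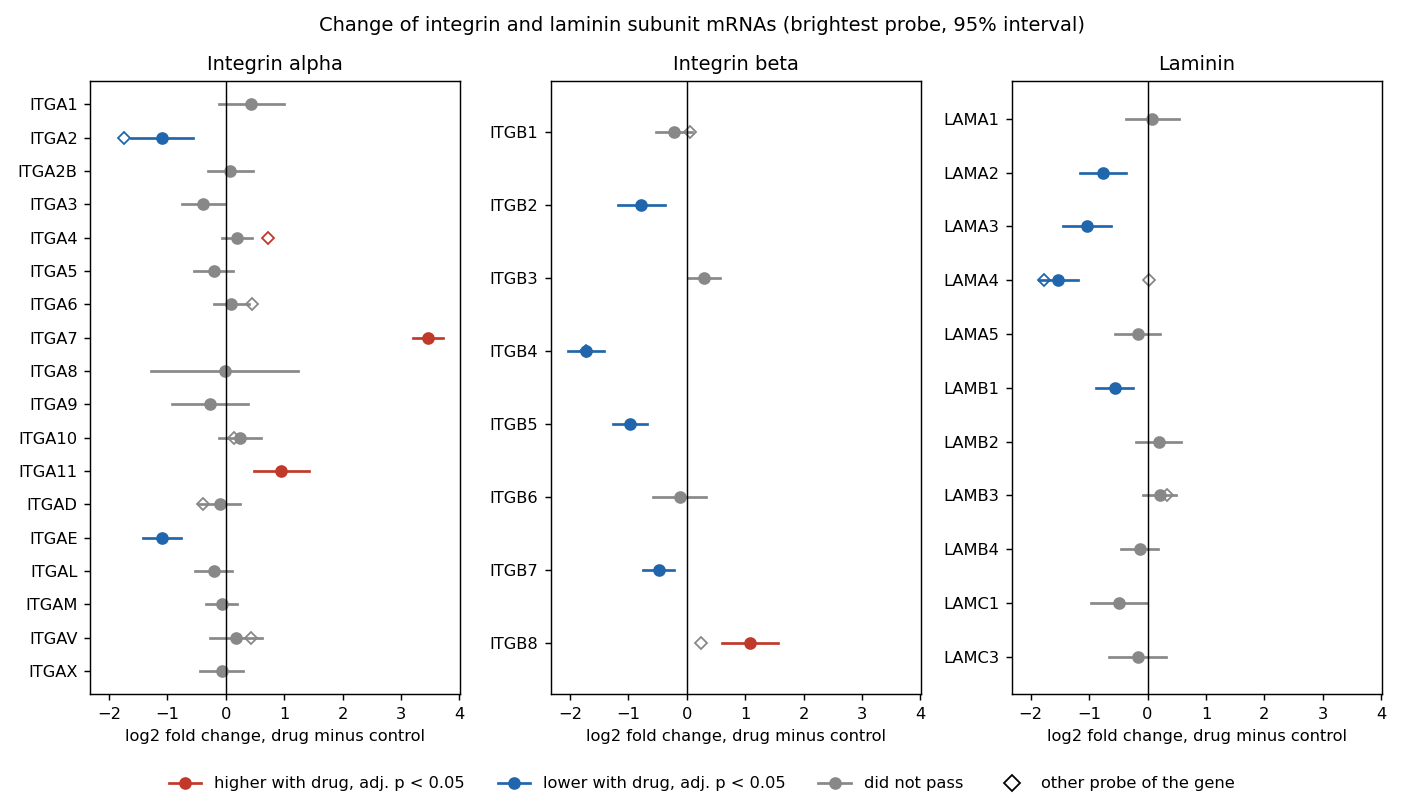
Log2 fold change (drug minus control) of every measured integrin alpha, integrin beta and laminin gene, with filled points for the brightest probe, lines for its 95% interval and open diamonds for other probes of the gene. ITGA7, at 3.46, stands far to the right, and ITGB4, at -1.72, and LAMA4, at -1.52, are the lowest filled points.

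The integrin and laminin genes called at 2-fold or more were ITGA7, ITGB8, ITGA2, ITGAE, ITGB4, LAMA3 and LAMA4, and 5 of them have an entry among the RefSeq promoters (build GRCh38.p14). Shown are the 250 bases before the start for the 4 of these that fell, 5′ to 3′ on the strand of the gene, with each motif match in capitals. They are shown because the array reads only the RNA, and the letters let a reader see what stands before these starts.
ITGA2: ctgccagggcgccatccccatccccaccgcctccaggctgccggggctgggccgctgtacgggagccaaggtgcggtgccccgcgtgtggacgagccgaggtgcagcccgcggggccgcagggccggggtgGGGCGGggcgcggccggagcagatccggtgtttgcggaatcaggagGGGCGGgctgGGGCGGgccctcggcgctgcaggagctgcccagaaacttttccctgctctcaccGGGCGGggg
ITGAE: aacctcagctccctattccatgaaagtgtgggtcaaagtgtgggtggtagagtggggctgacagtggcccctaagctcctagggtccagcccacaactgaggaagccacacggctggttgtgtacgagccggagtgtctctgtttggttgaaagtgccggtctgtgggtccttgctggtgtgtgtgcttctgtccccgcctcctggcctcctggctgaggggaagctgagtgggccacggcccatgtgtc
LAMA3: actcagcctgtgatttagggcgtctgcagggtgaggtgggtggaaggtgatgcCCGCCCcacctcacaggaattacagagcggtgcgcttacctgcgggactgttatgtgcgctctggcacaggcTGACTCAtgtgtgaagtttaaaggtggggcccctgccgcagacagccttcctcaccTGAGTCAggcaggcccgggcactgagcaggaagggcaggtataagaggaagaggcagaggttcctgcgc
LAMA4: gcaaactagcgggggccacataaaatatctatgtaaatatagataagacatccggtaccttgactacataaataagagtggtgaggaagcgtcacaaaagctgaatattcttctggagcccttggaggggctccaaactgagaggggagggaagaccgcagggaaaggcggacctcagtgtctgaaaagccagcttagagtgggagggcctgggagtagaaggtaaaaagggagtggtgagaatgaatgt
The ITGA2 window is chr5:52989102-52989351 on the plus strand, that of ITGAE is chr17:3801189-3801438 on the minus strand that of LAMA3 is chr18:23872770-23873019 on the plus strand and that of LAMA4 is chr6:112254568-112254817 on the minus strand. The LAMA3 start is an internal one, 183567 bases inside the annotated gene, and that of LAMA4 lies 418 bases inside. All 5 motifs were searched on both strands. The motif of the AP-1 factors, which are Fos and Jun dimers, was written TGANTCA. The motif of the TEAD factors, which work with YAP1, was written GGAATG. The motif of SP1, a factor of many GC-rich promoters, was written GGGCGG. The E-box, which basic helix-loop-helix factors bind, was written CACGTG. The TATA box, which places the start in a minority of promoters, was written TATAAA.  LAMA3 held 2 AP-1 matches, 125 to 119 and 69 to 63 bases before the start, and 1 SP1 match. ITGA2 held 4 SP1 matches, and ITGAE and LAMA4 held none of the 5 motifs in this window. The window of ITGB8, the fifth member with an entry, which rose, held 2 SP1 matches. Of all 35116 windows of this length, 6.57% held the AP-1 letters and 42.6% the SP1 letters. A match is a description of the letters and not a measured binding site.

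Among the laminin receptors, ITGA7 rose, ITGB4 fell, and the calls of ITGA3, ITGA6 and ITGB1 did not pass. ITGA7, which pairs with ITGB1 and is known as the laminin receptor of skeletal muscle, had log2 intensities of 8.30, 8.37 and 8.22 on control 2, 5 and 6 and of 11.74, 11.73 and 11.79 on drug 1, 3 and 4. The drug arrays lay far above the control arrays and close to each other. The log2 fold change was 3.46 (SE 0.111, n = 3 per group; limma adjusted p = 7.71e-06), and by this value ITGA7 was number 54 from the top among 18336 genes. ITGB4, the hemidesmosome beta chain, read 15.69, 15.82 and 15.46 on the control arrays and 13.93, 13.92 and 13.95 on the drug arrays. No drug array came within the control range, and the drop was -1.72 (SE 0.132, adjusted p = 0.000111). The other ITGB4 probe gave the same size of change, -1.72 (SE 0.236), from a mean of 12.06 ± 0.479 (SD) to 10.34 ± 0.105.

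ITGA6, the alpha partner of ITGB4, had a mean of 13.82 ± 0.151 in the control and 13.92 ± 0.0808 in the drug flasks, and the groups overlapped on both of its probes. Its log2 fold change was 0.094, with a 95% interval from -0.21 to 0.40, and the other probe gave 0.44 (interval -0.15 to 1.03). ITGA3, the alpha chain that binds laminins with ITGB1, went from 13.65 ± 0.247 to 13.26 ± 0.0475. Its drug arrays all lay below the control arrays, but the adjusted p was 0.0988. With median centring ITGA3 passed (-0.58, adjusted p = 0.0244). ITGB1, the shared beta chain, was read by 2 probes. The brighter read 16.06, 16.20 and 16.41 on the control and 15.98, 16.03 and 16.02 on the drug arrays, a change of -0.22 (interval -0.52 to 0.086, adjusted p = 0.275). The other gave 0.059 (interval -0.33 to 0.44). The 2 ITGB1 probes thus differed in sign, and neither passed.

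Of the 4 collagen-binding alpha chains, ITGA2 fell, ITGA11 rose, and ITGA1 and ITGA10 did not pass. ITGA2, which binds collagens and also laminin, read 12.00, 12.06 and 11.44 on the control arrays and 10.88, 10.94 and 10.39 on the drug arrays. The ranges did not overlap, and the change was -1.10 (SE 0.223, adjusted p = 0.00811). On its other probe the arrays of a group lay closer together, at 9.24 ± 0.0921 and 7.50 ± 0.0704, and the change was larger, -1.74 (SE 0.116, adjusted p = 6.73e-05). ITGA11, a receptor for fibrillar collagen known from fibroblasts, read 7.01, 7.31 and 7.55 on the control and 8.45, 8.36 and 7.91 on the drug arrays. All drug arrays were above all control arrays, with a change of 0.95 (SE 0.199, adjusted p = 0.00931). Of 9 fibroblast markers none was called higher, the collagen chain COL1A1 fell by 2.12, and COL3A1 and DCN were dim in both groups. The share of these markers called was 11.1%, against 35.1% of all genes. THY1 and PDGFRB, the brightest of those that did not pass, changed by 0.41 and -0.24. The summed intensity of all 9 markers ran from 31636 to 37290 on the control and from 11109 to 12612 on the drug arrays. COL1A1 carried this difference in the sum. Without it, a sum chosen after seeing the data, the other 8 markers ran from 3913 to 5777 on the control and from 5141 to 5679 on the drug arrays, with overlap and a median log2 fold change of 0.029. The part of these markers in the ITGA11 value was not tested. ITGA1 was dim in both groups, at 4.94 ± 0.337 and 5.38 ± 0.353, and ITGA10 changed by 0.24 (interval -0.11 to 0.60).

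Receptors of the RGD class bind fibronectin, vitronectin and latent TGF-beta through a short peptide motif. None of its alpha chains passed, whereas the beta chains ITGB5 and ITGB8, both partners of ITGAV, changed in opposite directions. ITGB5, a vitronectin receptor chain, read 15.40, 15.44 and 15.22 on the control arrays and 14.41, 14.26 and 14.48 on the drug arrays. The drug arrays were all lower, by 0.97 on average (log2 fold change -0.97, SE 0.125, adjusted p = 0.00103). ITGB8, which binds latent TGF-beta with ITGAV, read 6.57, 6.00 and 6.74 on the control arrays and 7.42, 7.53 and 7.61 on the drug arrays. The drug arrays were all higher, with a change of 1.08 (SE 0.202, adjusted p = 0.00543). In the control flasks ITGB8 counted as dim. Adding 50 before the logarithm in place of 1 lowered its fold from 2.12 to 1.71, and its other probe, dim in both groups, gave 0.25 and did not pass (adjusted p = 0.243).

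ITGAV itself had means of 13.47 ± 0.326 and 13.64 ± 0.158, a change of 0.17 (interval -0.27 to 0.61), and its other probe gave 0.44 (interval -0.0094 to 0.88). ITGA5, the fibronectin receptor alpha chain, changed by -0.21 (interval -0.54 to 0.12) and ITGB6, an epithelial partner of ITGAV, by -0.12 (interval -0.57 to 0.34). ITGB3, the beta chain of the platelet fibrinogen receptor, changed by 0.29 (adjusted p = 0.106), with all drug arrays above the control arrays, and its platelet partner ITGA2B by 0.076 (interval -0.31 to 0.46). None of 6 measured platelet markers passed, against 35.1% of all genes. ITGA8, dim in both groups, had a spread of 0.954 between control arrays. Its interval ran from -1.27 to 1.23, so a change of 2-fold in either direction was not excluded. Of ITGA4 and ITGA9, which bind fibronectin or VCAM1, ITGA9 was dim in both groups and did not pass. The brighter ITGA4 probe changed by 0.19 (SE 0.108, adjusted p = 0.249), and its dim probe by 0.73 (SE 0.219, adjusted p = 0.0408). Without control 2, control 6, drug 1 or drug 3 the dim probe of ITGA4 did not pass (adjusted p from 0.098 to 0.130).

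Integrin chains best known from leukocytes gave 3 falls. ITGAE, the alpha chain that holds intraepithelial lymphocytes to E-cadherin, read 13.96, 13.97 and 14.19 on the control and 13.07, 12.76 and 13.00 on the drug arrays. The groups did not overlap, and the change was -1.10 (SE 0.138, adjusted p = 0.000918). ITGB7, its beta partner, went from 7.45 ± 0.0775 to 6.97 ± 0.0799 (-0.48, SE 0.115, adjusted p = 0.0163), with all drug arrays lower. ITGB7 did not pass without control 5, drug 1 or drug 3 (adjusted p from 0.0565 to 0.0767), nor with the values as deposited (0.305) or median centring (0.139). ITGB2, the beta chain of the leukocyte integrins, read 9.28, 9.11 and 8.83 on the control and 8.41, 8.05 and 8.44 on the drug arrays, and no drug array reached the control range (-0.77, SE 0.172, adjusted p = 0.0119). With the values as deposited it did not pass (adjusted p = 0.0814). Its alpha partners ITGAL, ITGAM, ITGAX and ITGAD changed by -0.21, -0.073, -0.073 and -0.11 and did not pass. Both probes of ITGAD were dim in both groups. Of 12 measured leukocyte markers, 1 rose (CD14, by 0.76) and none fell, a share called of 8.33% against 35.1% of all genes. PTPRC and CD3E, defining markers of leukocytes and T cells, were among the 4 markers dim in both groups. CD3D, also a T cell marker, and CD14 were the brightest of the list. On its brighter probe CD3D had means of 12.26 and 12.45 and did not pass. Its other probe changed by 2.99 and did not pass either. The summed intensity of the markers ran from 9181 to 9205 on the control and from 10491 to 11738 on the drug arrays. Their part in the 3 falls was not tested.

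**Figure D2:**
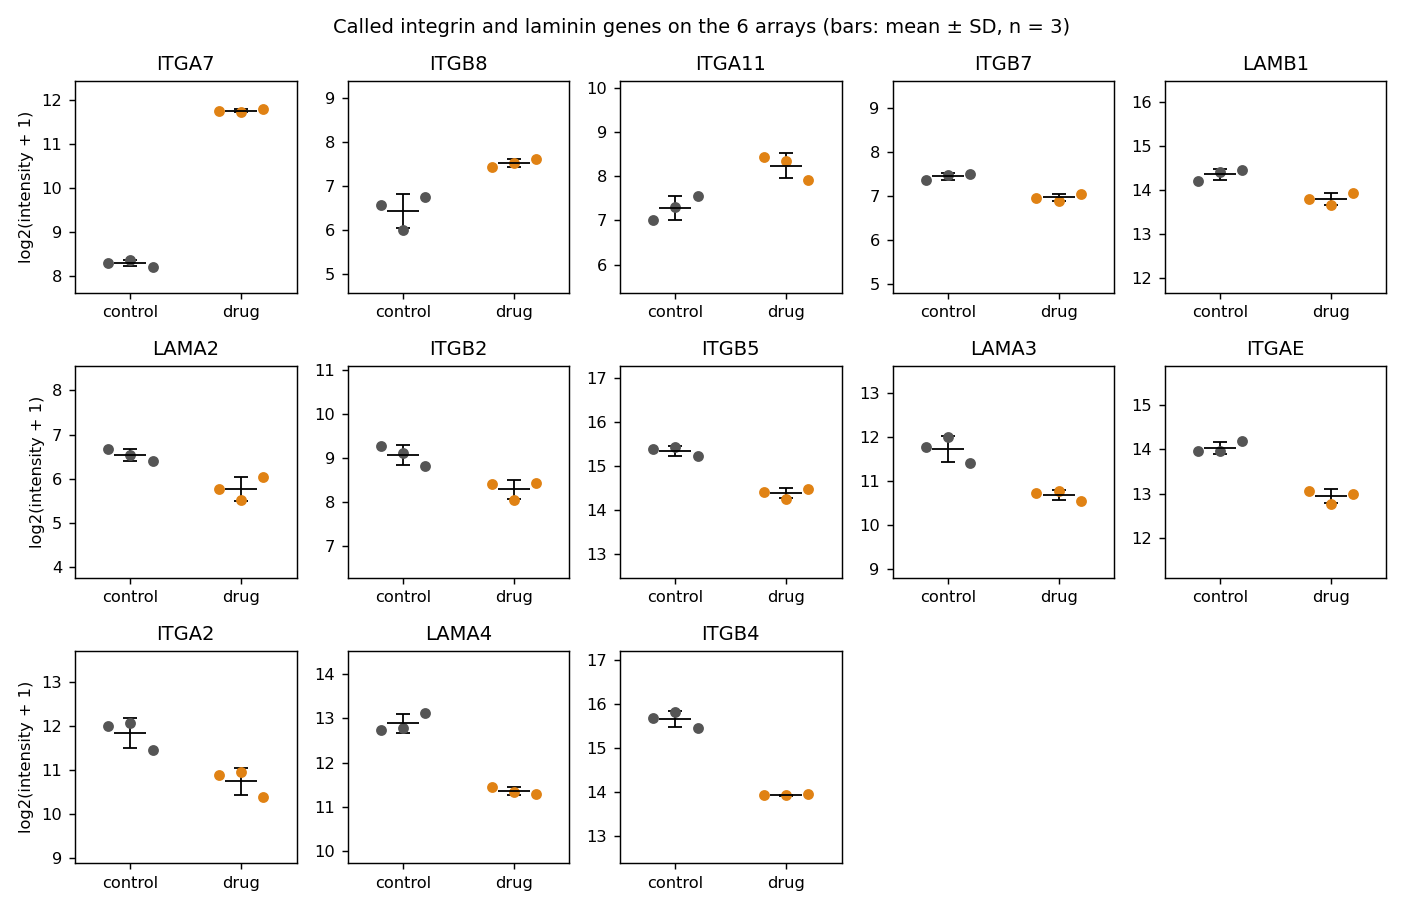
Log2(intensity + 1) on each of the 3 control and 3 drug arrays for the 13 called integrin and laminin genes, ordered by log2 fold change, with the mean and SD of each group (n = 3) and the same axis span in each panel. In every panel the drug points lie wholly above or wholly below the control points, and the gap is widest for ITGA7.

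Since an integrin works as a dimer, the changes of both chains were set side by side for the 24 known pairs. Both chains fell in 1 pair, ITGAE with ITGB7, and in 0 pairs without control 5, drug 1 or drug 3, with the values as deposited or with median centring. In 11 pairs 1 chain was called and the other was not, and in 12 pairs neither was. No pair had 2 chains that rose, and none had chains called in opposite directions. Of the 12 pairs that share ITGB1, 3 had a called alpha chain (ITGA7 and ITGA11 higher, ITGA2 lower). The 4 pairs of ITGB2 and the pairs ITGA4 with ITGB7, ITGA6 with ITGB4 and ITGAV with ITGB5 had a lower beta chain beside an alpha chain that did not pass.

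The difference between the chains was then taken within each array, which measures unequal change and not the amount of either chain. For ITGA7 minus ITGB1, relative to the control mean, the control arrays gave 0.16, 0.099 and -0.26 and the drug arrays 3.70, 3.63 and 3.70. The alpha chain thus gained by 3.68 on its partner. For ITGA6 minus ITGB4 the control arrays gave 0.12, -0.18 and 0.058 and the drug arrays 1.91, 1.81 and 1.73, a mean difference of 1.82 with no overlap. ITGAV gained by 1.14 on ITGB5, and its difference to ITGB8 changed by -0.91. The ITGAV-ITGB8 value moved with the processing, to -1.40 with the values as deposited or median centring, to -0.60 with 50 added and to -0.36 with the mean of all probes of a gene. With 3 arrays against 3, the exact permutation test (two-sided) cannot go below p = 0.1, and 17 of the 24 pairs (70.8%) lay wholly apart. No share over other pairs of genes was computed, so this count says nothing particular to integrin pairs. For ITGA5 minus ITGB1 the change was 0.0076 (exact p = 1). Pairs share chains, so they are not independent of each other.

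**Figure D3:**
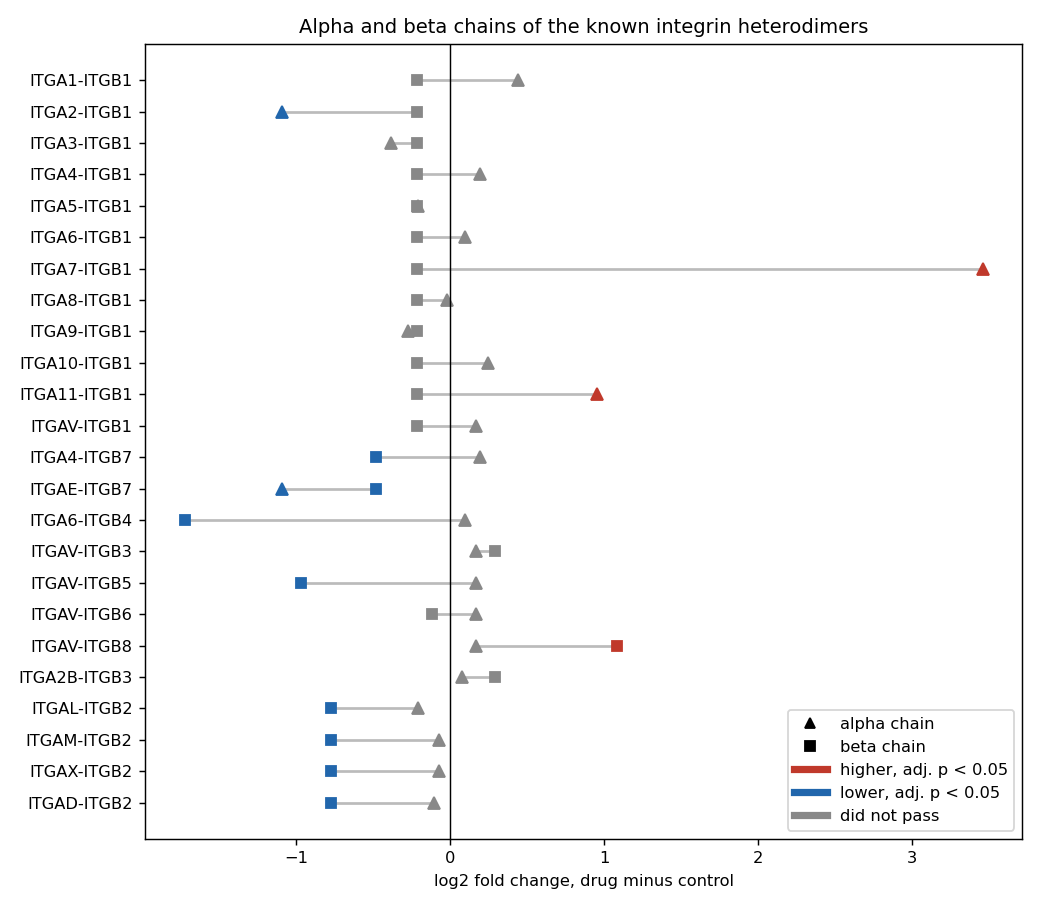
Log2 fold change (drug minus control) of the alpha chain (triangle) and the beta chain (square) of each of the 24 known integrin pairs, joined by a line and coloured by whether the chain passed. The longest lines are those of ITGA7 with ITGB1 and of ITGA6 with ITGB4, and in both pairs 1 chain lies near 0.

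Laminin alpha chains 2, 3 and 4 and the beta chain LAMB1 fell, no laminin chain rose, and the alpha chains LAMA1 and LAMA5 did not pass. LAMA4, the alpha chain of vascular and mesenchymal basement membranes, read 12.74, 12.79 and 13.13 on the control arrays and 11.46, 11.34 and 11.28 on the drug arrays. The drug arrays were all lower, by 1.52 on the log2 scale (log2 fold change -1.52, SE 0.145, adjusted p = 0.000275). A second LAMA4 probe gave -1.77 (SE 0.123, from 10.03 ± 0.0600 to 8.26 ± 0.136), while the third, near the level called dim, gave 0.033 (interval -0.42 to 0.49). LAMA3, the alpha chain of the epithelial laminin in hemidesmosomes, read 11.77, 12.00 and 11.42 on the control and 10.74, 10.78 and 10.56 on the drug arrays. These did not overlap either (-1.04, SE 0.172, adjusted p = 0.00317). LAMA2, the muscle and nerve laminin chain, was dim in both groups, at 6.53 ± 0.139 and 5.77 ± 0.271. It changed by -0.76 (SE 0.168, adjusted p = 0.0117), its fold of 1.69 became 1.36 with 50 added, and it did not pass with the values as deposited or with median centring (adjusted p = 0.300 and 0.126).

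LAMA1, known from early embryonic basement membranes, had means of 13.47 ± 0.360 and 13.55 ± 0.10 (change 0.081, interval -0.37 to 0.53). LAMA5, the widespread alpha chain of adult epithelia, had 12.94 ± 0.194 and 12.77 ± 0.217 (change -0.16, interval -0.55 to 0.22). For both, the groups overlapped. LAMB1, the common beta chain, read 14.21, 14.40 and 14.45 on the control and 13.80, 13.65 and 13.93 on the drug arrays. The drug arrays were all lower (-0.56, SE 0.132, adjusted p = 0.0151), but without drug 1 or drug 3 the call was lost (adjusted p = 0.0586 and 0.0726). LAMB2, which replaces LAMB1 at synapses and in the kidney filter, changed by 0.19 (interval -0.19 to 0.57). LAMB3, the partner of LAMA3 in hemidesmosomes, changed by 0.21 on its brighter probe (interval -0.071 to 0.49) and by 0.33 on the other. LAMB4 and the gamma chain LAMC3 changed by -0.14 and -0.16 and did not pass.

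LAMC1, the gamma chain of most laminins, read 14.91, 15.05 and 14.32 on the control and 14.18, 14.42 and 14.23 on the drug arrays. Control 6 lay among the drug arrays, and the change of -0.48 did not pass (SE 0.204, adjusted p = 0.125). Without control 6 it was -0.70 and passed (adjusted p = 0.0121, with a range from 0.0121 to 0.305 over the alternatives). Of 13 known trimers with every chain measured, 10 had at least 1 chain that fell, 4 had 2, and none had a chain that rose. All 4 hold LAMB1, and without drug 1 or drug 3 the counts were 8 and 0. Without control 6, where LAMC1 passed, they were 12 and 9. Laminin 411, of LAMA4, LAMB1 and LAMC1, had changes of -1.52, -0.56 and -0.48. Laminins 121, 521 and 523 held no called chain. Trimers share chains, so these counts follow from 4 genes. Of 8 endothelial markers, 1 rose (the receptor KDR, by 1.37) and none fell, a share called of 12.5% against 35.1% of all genes. Their summed intensity ran from 2092 to 2381 on the control and from 2713 to 2784 on the drug arrays. KDR carried the rise of the sum. Without it, again chosen after seeing the data, the other 7 markers ran from 1848 to 2101 on the control and from 1971 to 2187 on the drug arrays, with overlap. The part of these markers in the laminin results was not tested.

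**Figure D4:**
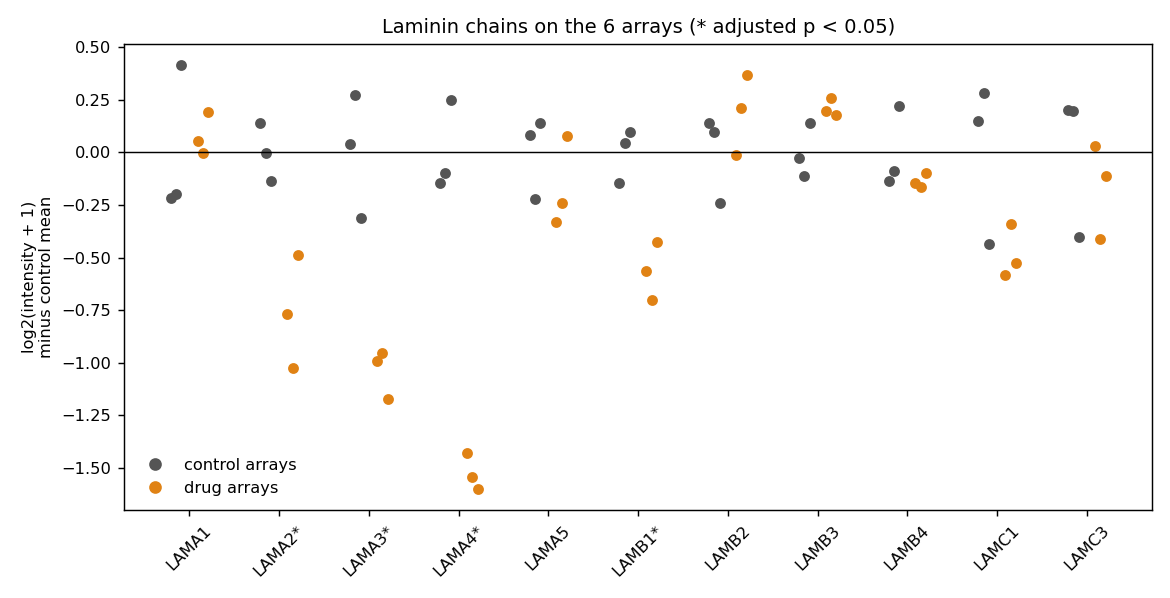
Log2(intensity + 1) of the 11 laminin chains on each array, minus the mean of the 3 control arrays, with control arrays in grey and drug arrays in orange. LAMA2, LAMA3, LAMA4 and LAMB1 are marked as called and have all drug points below all control points, whereas the control points of LAMC1 spread over the drug points.

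The genes that work with integrins and laminins were read from 6 lists with 100 measured genes, of which 28 rose and 25 fell. Among 29 activators and adaptors of the integrin tail, 6 rose and 8 fell. Their median log2 fold change was -0.14, and that of all genes was 0.0075. The tensins TNS3 and TNS2, which bind beta tails, changed by -1.77 (SE 0.144) and -1.62 (SE 0.185), and the paxillin relative TGFB1I1 by -1.58 (SE 0.141), with adjusted p-values of 0.000142, 0.000598 and 0.000206. A second TNS3 probe gave -0.92 and was called too. With the drug TNS2 counted as dim, and adding 50 lowered its fold from 3.08 to 2.06. Among 5 integrin inhibitors and KRIT1, which sequesters one of them (ITGB1BP1), 1 rose and 2 fell, with a median of -0.13. Without KRIT1, 1 of the 5 inhibitors rose and 1 fell, and their median was -0.0075. The adaptor DOK1, which competes with talin, changed by -0.91 (SE 0.137). KRIT1 changed by -0.51 (SE 0.153) and SIPA1, which switches off the integrin activator RAP1, by 0.76 (SE 0.175). Without drug 1 or drug 3 neither KRIT1 nor SIPA1 passed, and only DOK1 of this list remained called.

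Among 11 membrane partners, 4 rose and 4 fell, with a median of 0.22. PLAUR, the urokinase receptor that binds integrins at the surface, changed by -2.22 (SE 0.160). A second PLAUR probe gave -1.01. CAV1, the caveolae protein, changed by -1.79 (SE 0.117), and CD47, which associates with ITGB3, by 1.23 (SE 0.151). These partners moved both ways. Among 24 ligands other than laminins, 6 rose and 3 fell, with a median of 0.28. THBS1, a matrix protein that binds CD47 and several integrins, rose by 2.97 (SE 0.171), and CCN2, a matricellular ligand of ITGAV pairs, by 2.86 (SE 0.233). NPNT, a ligand of ITGA8, rose by 1.61 (SE 0.167) on its brighter probe and did not pass on the other.

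Among 18 other basement membrane proteins, 6 rose and 6 fell, with a median of -0.19, and without drug 1 or drug 3 the count called dropped from 12 to 7. NTN4, a netrin that binds laminin gamma chains, changed by -2.39 (SE 0.185). NID2, a nidogen that bridges laminin and collagen IV, rose by 2.61 (SE 0.311) from a dim control level, and adding 50 lowered its fold from 6.10 to 3.05. SMOC2 rose by 1.15 (SE 0.138). Among 12 other laminin receptors, 5 rose and 2 fell, with a median of 0.010. MCAM, an adhesion molecule that binds LAMA4, rose by 2.71 (SE 0.149), and SDC2, a syndecan, by 2.08 (SE 0.121), whereas SGCE, a sarcoglycan, changed by -1.51 (SE 0.152). Adjusted p-values were 0.00207 for DOK1, 0.0406 for KRIT1 and 0.0145 for SIPA1, and at most 0.000829, that of CD47, for the genes named from the membrane partners, ligands, basement membrane proteins and receptors. The shares called were 48.3% of the activators and adaptors, 50% of the inhibitor list and 72.7% of the membrane partners. They were 37.5% of the other ligands, 66.7% of the other basement membrane proteins and 58.3% of the other laminin receptors. These are to be read beside the 35.1% of all genes. The shares were not tested, and the lists were chosen with earlier results of these data known.

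**Figure D5:**
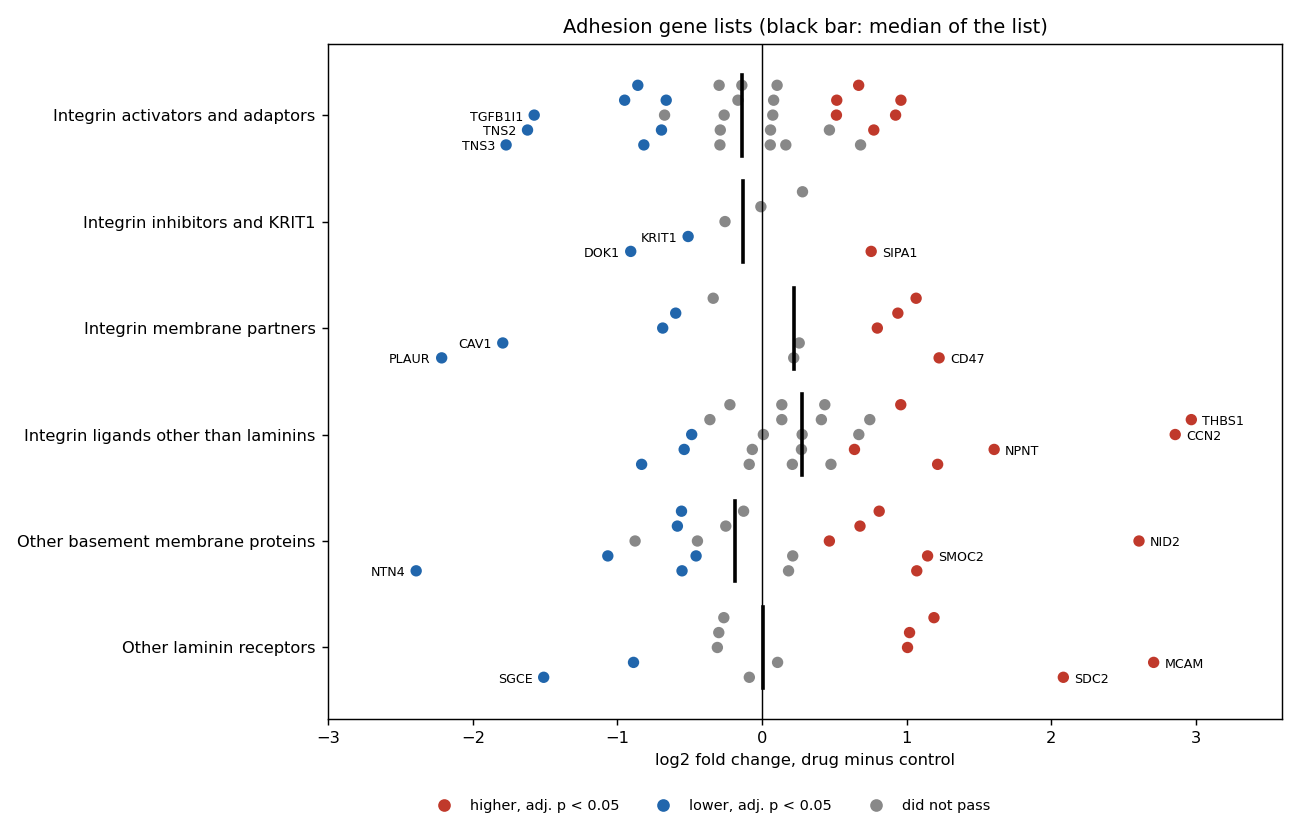
Log2 fold change (drug minus control) of every gene on the 6 adhesion lists, with the list's median as a black bar and the genes named in the text labelled. The medians lie between -0.19 and 0.28, while single genes such as THBS1, NID2, MCAM, PLAUR and NTN4 lie more than 2 units from 0.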

How the data were processed

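RNA of 6 flasks was hybridised to single-colour Phalanx OneArray microarrays after Cy5 labelling, per the labels' protocols. Each array's deposited column holds linear intensities of 31741 probes. How they were background-corrected or scaled is not stated in the labels or file headers. Since the medians of the arrays lay up to 0.337 apart in log2 units, over the limit of 0.1, the intensities were quantile normalized. The deposited values held negatives (462 on control 2, 968 on control 5, 1 on drug 4). Any value below 0 after quantile normalization was raised to 0, and log2(intensity + 1) was used. With the values as deposited and with median centring, the deposited negatives themselves were raised to 0. GEO's platform annotation named 1 gene for 24740 probes, and symbols were updated through RefSeq synonyms (GRCh38.p14) for the adhesion lists. The brightest probe on average stood for its gene.

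The test was limma 3.58.1 under R 4.3.3 (lmFit, eBayes without a trend, two-sided, drug minus control, no covariate), adjusted with Benjamini-Hochberg over all probes, with a threshold of 0.05. Groups came from the sample titles. The number of arrays, 3 per group, limits the precision. The fit was tested on simulated data. Pair differences were tested with exact permutation over the 20 orders of the arrays. The members, the lists and the rule for named list genes (up to 3 called genes per list with the largest change) were chosen with earlier results of these data known. Alternatives were other scalings, 50 added, brighter probes only, an intensity trend, array weights, each array left out and probe means per gene. Lists without COL1A1, KDR or KRIT1 were added after seeing the data.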

Additional observations from a re-analysis of the deposited data

How the results depend on the processing

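Of the 13 called members none changed sign in the 13 alternatives, and ITGA2, ITGA7, ITGA11, ITGAE, ITGB4, ITGB5, ITGB8, LAMA3 and LAMA4 kept their calls in all of them. Calls were lost for ITGB7 in 5, for LAMB1 in 2, for LAMA2 in 2 of 12 and for ITGB2 in 1. The values as deposited carry a median shift of 0.20 over all genes, against 0.0075 in the main comparison. With them 5 integrin genes rose in place of 3 (ITGA4 and ITGB3 were added), while ITGB2, ITGB7 and LAMA2 were lost. Median centring added ITGA3. Of 240 values of pair differences under the alternatives, 32 moved by more than the spread between arrays. Leaving out 1 array gave from 7637 to 9414 changed probes, from 4973 to 6085 changed genes, 8 or 9 integrin genes, 3 to 5 laminin genes, 17 or 18 pairs apart, 38 to 51 list genes, 7 to 10 basement membrane genes and 1 to 3 genes of the inhibitor list. No paired analysis was possible because the control and drug flasks share no replicate numbers.

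Sign changes were seen only among members that did not pass. As deposited, log2 fold changes were 2.97 for ITGA8, 2.25 for ITGA9, 0.29 for ITGAD (0.20 for ITGAD, probe 2 of 2), 0.092 for ITGAM, 0.018 for ITGB6, 0.058 for LAMB4 and 0.12 for LAMC3. With median centring they were -0.074 for ITGA2B, -0.095 for ITGA6, 2.84 for ITGA8, 2.12 for ITGA9, 0.16 for ITGAD (0.070 on that probe), -0.018 for ITGAV, -0.093 for LAMA1, -0.00056 for LAMB2 and -0.12 for ITGB1, probe 2 of 2. Array weights gave 0.12 for ITGA8, 0.033 for ITGB6 and -0.0078 for that ITGB1 probe. With 1 array left out, values ran from -0.040 to 0.24 for ITGA2B, from -0.43 to 0.56 for ITGA8, from -0.15 to 0.054 for ITGAX, from -0.24 to 0.046 for ITGB6, from -0.026 to 0.29 for LAMA1, from -0.075 to 0.16 for that ITGB1 probe and from -0.058 to 0.19 for LAMA4, probe 3 of 3. The cause was not tested. Dim probes such as ITGA8 and ITGA9 limit what the arrays can show.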
